A study of Homo sapiens with 3 samples.

Results

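BEND3 peaks at 9 gene starts are described here: JUND, TDRD7, RAB14, ACTG1, AEBP2, D2HGDH, ZNF555, ZNF558 and CERCAM. These 9 loci were chosen by the authors' peak scores, as regions that ranked high in both BEND3 peak lists and carry the name of a gene whose start is given there. Of these names only that of CERCAM could be checked against hg19. They are 9 of 1138 regions in all and 9 of the 196 regions found in both lists. The study immunoprecipitated chromatin of NTera2, a human embryonal carcinoma line used as a model of pluripotent cells, which was kept in serum-containing medium with no treatment named. There were 2 libraries with a rabbit antibody against BEND3 (replicates 1 and 2) and 1 library with rabbit IgG, all from this line, and both peak lists were called against the IgG library. The labels do not say whether the ChIPs came from separate cultures, so agreement between them may be technical. Replicate 1 had 216 peaks and replicate 2 had 1118. The lists carry no read numbers, and the sequencing depth of the libraries is therefore unknown.

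BEND3 belongs to the BEN-domain proteins, binds DNA through its BEN domains and is known as a transcriptional repressor that occurs at heterochromatin, at ribosomal DNA and at CpG-rich promoters. CpG islands are stretches in which CpG dinucleotides have been kept, and they cover the starts of most housekeeping genes and many developmental genes. CCCACGCG is a motif known for BEND3, and its core holds the CpG steps that such islands are rich in.

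The members are genes with varied roles. JUND is a transcription factor of the AP-1 family, and AEBP2 is a zinc finger protein that accompanies Polycomb repressive complex 2. ZNF555 and ZNF558 are zinc finger proteins of the short arm of chromosome 19, a chromosome with many such genes. TDRD7 is a Tudor-domain protein of germ cell RNA granules, and D2HGDH is the mitochondrial enzyme that oxidises D-2-hydroxyglutarate. RAB14 is a small GTPase of endosome and Golgi traffic, ACTG1 is cytoplasmic gamma-actin, and CERCAM is related to the collagen galactosyltransferases. TDRD7, RAB14 and CERCAM lie on chromosome 9, and JUND, ZNF555 and ZNF558 on chromosome 19. D2HGDH lies on chromosome 2, AEBP2 on 12 and ACTG1 on 17. The share of all peaks on these chromosomes is not given here.

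Promoter sequences came from RefSeq (GRCh38.p14), where each window holds the 250 bases before a gene's start and the 50 after it. All 9 genes matched, with 11 windows, because ZNF558 and CERCAM have more than 1 start. The peaks are in hg19 and no hg19 sequence was used here, so how far a peak lies from the window shown was not measured. The windows of 5 genes are printed because their motif content differed. Each runs from 250 bases before the start to 30 after it, 5′ to 3′ on the gene's strand. In the first 3, capitals mark the core CACGCG or its reverse complement CGCGTG. In JUND they mark the cyclic AMP response element TGACGTCA, and in ZNF555 the NF-Y box CCAAT.

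TDRD7 (chr9:97411846-97412125, plus strand): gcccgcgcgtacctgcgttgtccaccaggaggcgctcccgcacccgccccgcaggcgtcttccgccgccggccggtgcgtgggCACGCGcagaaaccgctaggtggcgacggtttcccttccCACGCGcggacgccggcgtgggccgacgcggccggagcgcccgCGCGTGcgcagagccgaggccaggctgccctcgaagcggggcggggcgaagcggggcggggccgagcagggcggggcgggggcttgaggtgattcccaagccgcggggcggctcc
ZNF558 (chr19:8832275-8832554, minus strand): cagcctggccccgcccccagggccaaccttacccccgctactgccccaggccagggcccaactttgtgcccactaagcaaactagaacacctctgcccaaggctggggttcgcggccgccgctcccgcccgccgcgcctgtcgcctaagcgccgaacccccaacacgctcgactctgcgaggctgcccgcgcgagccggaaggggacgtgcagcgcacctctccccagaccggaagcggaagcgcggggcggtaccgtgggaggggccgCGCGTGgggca
RAB14 (chr9:121201840-121202119, minus strand): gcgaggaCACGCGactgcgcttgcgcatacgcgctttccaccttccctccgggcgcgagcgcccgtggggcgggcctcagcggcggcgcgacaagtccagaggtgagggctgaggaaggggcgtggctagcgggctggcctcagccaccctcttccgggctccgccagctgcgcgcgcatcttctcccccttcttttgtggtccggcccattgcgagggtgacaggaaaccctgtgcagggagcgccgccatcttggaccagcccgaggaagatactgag
JUND (chr19:18281593-18281872, minus strand): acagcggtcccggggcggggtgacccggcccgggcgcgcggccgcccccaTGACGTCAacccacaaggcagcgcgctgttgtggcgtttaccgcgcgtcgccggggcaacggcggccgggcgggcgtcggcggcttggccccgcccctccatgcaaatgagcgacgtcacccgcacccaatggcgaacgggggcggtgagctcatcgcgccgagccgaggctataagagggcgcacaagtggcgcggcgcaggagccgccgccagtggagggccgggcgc
ZNF555 (chr19:2841225-2841504, plus strand): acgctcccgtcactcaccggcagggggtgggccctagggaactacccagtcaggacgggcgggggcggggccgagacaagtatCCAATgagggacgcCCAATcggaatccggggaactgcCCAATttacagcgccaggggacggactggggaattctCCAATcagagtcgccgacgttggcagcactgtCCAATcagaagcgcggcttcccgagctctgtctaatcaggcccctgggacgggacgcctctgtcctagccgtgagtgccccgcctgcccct

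The full motif CCCACGCG was found, with both strands searched, in the windows of 2 of the 9 genes, TDRD7 and ZNF558. Of all 27305 genes with a window, 2.04% held it, as did 1.69% of all 35116 windows. Among genes with a CpG-rich window (GC content of at least 50% and CpG observed over expected of at least 0.6) the share was 3.7%. In TDRD7 the motif lay 130 to 123 bases before the start, on the gene's strand. In ZNF558 it lay on the other strand, at bases 20 to 27 after the start. So of these 2 matches 1 is upstream of the gene and 1 inside its transcribed part.

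The shorter core CACGCG, which lies inside every full motif, was present in 3 of the 9 genes, against 13.5% of all genes and 24.3% of genes with a CpG-rich window. TDRD7 had 3 copies, at 167, 128 and 85 bases before the start, and the second of them lies within its full motif. RAB14 had 1 copy, 243 bases before the start, and ZNF558 had the 1 inside its full motif. JUND, ACTG1, AEBP2, D2HGDH, ZNF555 and CERCAM had neither the motif nor this core in their windows. That says only that these letters are not in those bases, and the sequence under the peaks was not read.

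The shortest core, CGCG, which lies inside both others, was found in all 9 genes, against 52.8% of all genes. ACTG1 had 12 copies in its window, more than any other member, and TDRD7 had 9. ZNF555 had 1, the fewest among the members' CpG-rich windows. GGGCGG, the GC box recognised by SP1, was likewise found in all 9 genes (48.3% of all genes), with 6 copies each in D2HGDH, TDRD7 and JUND. Every member has a CpG-rich window, and for CGCG and GGGCGG no share among such genes is given. The all-gene shares are therefore a loose background.

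Other promoter elements differed among the members. The NF-Y box CCAAT occurred in 4 of 9 genes (39.7% of all genes). ZNF555 held 5 copies, all on the gene's strand, the farthest 167 and the nearest 61 bases before the start. JUND, ACTG1 and CERCAM held 1 copy each. TGACGTCA was found in JUND alone, at 200 to 193 bases before the start, and 2.25% of all genes held it. TATAAA was found in 0 of the 9, against 14% of all genes. The shares for these elements too are over all genes, CpG-rich or not.

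**Figure D1:**
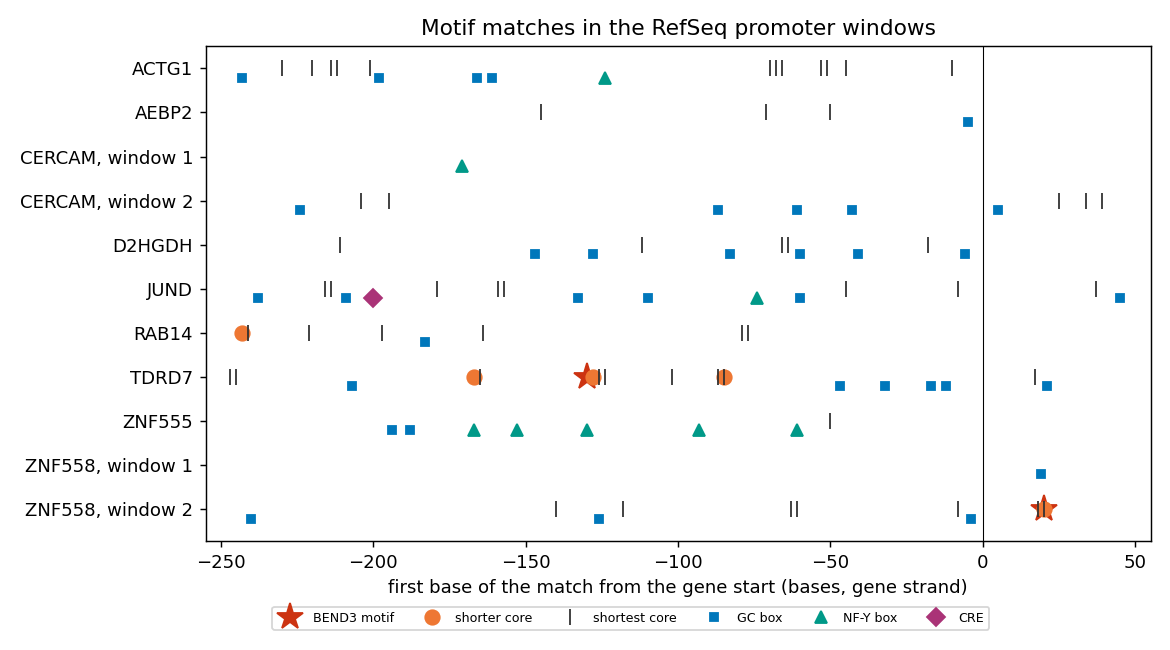
Position of each motif match (x axis, bases from the gene start on the gene's strand) in the 11 RefSeq windows of the 9 genes (y axis). The BEND3 motif appears in TDRD7 and in the second window of ZNF558, and ZNF555 carries a row of 5 NF-Y boxes.

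The members' starts were rich in CpG. CpG observed over expected compares the CpG count with that given by the window's C and G content. It had a median of 0.853 over the 11 windows (0.181 to 1.12), against a median of 0.579 over all windows (quartiles 0.229 and 0.856). GC content had a median of 73.3% (52.3 to 79.7%), against 58.7% over all windows (quartiles 47.0 and 68.0%). Every member gene had a CpG-rich window, as did 50.2% of all genes.

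The windows fell into a large and a small set. The highest ratios were those of ACTG1 (1.12, 50 CpG), JUND (1.11, 49 CpG) and TDRD7 (1.11, 50 CpG). AEBP2 followed with 0.995 (28 CpG) and D2HGDH with 0.967 (43 CpG). ACTG1, JUND and TDRD7 exceeded over 97% of all windows in this measure, at percentiles of 98.1, 97.7 and 97.6. The lower CpG-rich windows were ZNF558 (0.853), RAB14 (0.820), ZNF555 (0.765) and CERCAM (0.745). The other windows of CERCAM and ZNF558 were poor in CpG, with ratios of 0.247 (5 CpG) and 0.181 (4 CpG).

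**Figure D2:**
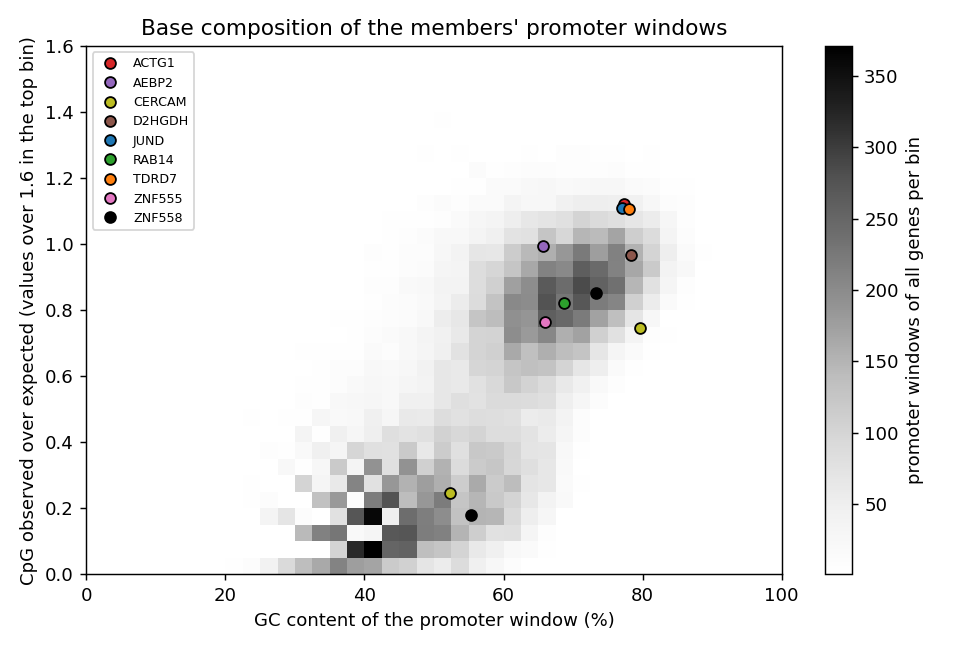
GC content (x axis, %) and CpG observed over expected (y axis) of the 11 member windows (coloured points) over the density of all 35116 windows (grey). ACTG1, JUND and TDRD7 lie together at the top, and 1 window each of CERCAM and ZNF558 lies in the CpG-poor cloud.

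At each locus both lists held exactly 1 peak. By the choice of members all 9 are shared, while 90.7% of all replicate 1 peaks and 17.5% of all replicate 2 peaks overlapped a peak of the other list by at least 1 bp. The score of a peak is the authors' own value and is used here to rank peaks within a list. It also helped choose the members, so ranks and scores are a description.

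JUND, which encodes a regulator of proliferation and stress responses, had its peak at chr19:18392661-18392939 in replicate 1 (score 1193) and at 18392606-18392954 in replicate 2 (score 1656). It ranked 6 of 216 and 12 of 1118 and was the highest member in replicate 1. TDRD7 had its peak at chr9:100174109-100174418 (score 1096) and at 100174069-100174441 (score 2193), with ranks 9 and 6, and was the highest member in replicate 2. AEBP2 had its peak at chr12:19592319-19592600 (score 987) and at 19592266-19592657 (score 1663), with ranks 14 and 11. These 3 loci were the members that ranked among the 15 highest peaks in both lists.

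RAB14 ranked 10 in replicate 1, where its peak at chr9:123964223-123964530 had a score of 1057. In replicate 2 it ranked 25, with a peak at 123963415-123964558 and a score of 1117. D2HGDH ranked 13 in replicate 1 (chr2:242674057-242674976, score 1000) and 26 in replicate 2 (242674045-242674942, score 1109), where it was the lowest member. ZNF555 ranked 15 in replicate 1 (chr19:2841031-2841309, score 948) and 20 in replicate 2 (2840979-2841836, score 1296). These 3 loci had the lowest member scores of replicate 2 and its widest member peaks.

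CERCAM ranked 20 in replicate 1 (chr9:131182432-131182765, score 846) and 18 in replicate 2 (131182400-131182819, score 1331). ZNF558 ranked 24 (chr19:8942741-8943051, score 794) and 17 (8942705-8943069, score 1379). ACTG1 ranked 25 (chr17:79479930-79480273, score 789) and 16 (79479854-79480291, score 1433). These were the 3 lowest members of replicate 1 and stood in the middle of the members in replicate 2.

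Over the members, scores ran from 789 to 1193 in replicate 1 (median 987) and from 1109 to 2193 in replicate 2 (median 1379). The medians of the whole lists were 444.5 and 400. The median member stood at percentile 93.5 of its list in replicate 1 and at 98.5 in replicate 2. The lists differ in length, so these percentiles are not compared. Among the 196 shared regions, where both lists rank the same regions, the median member stood at percentile 92.9 in each.

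**Figure D3:**
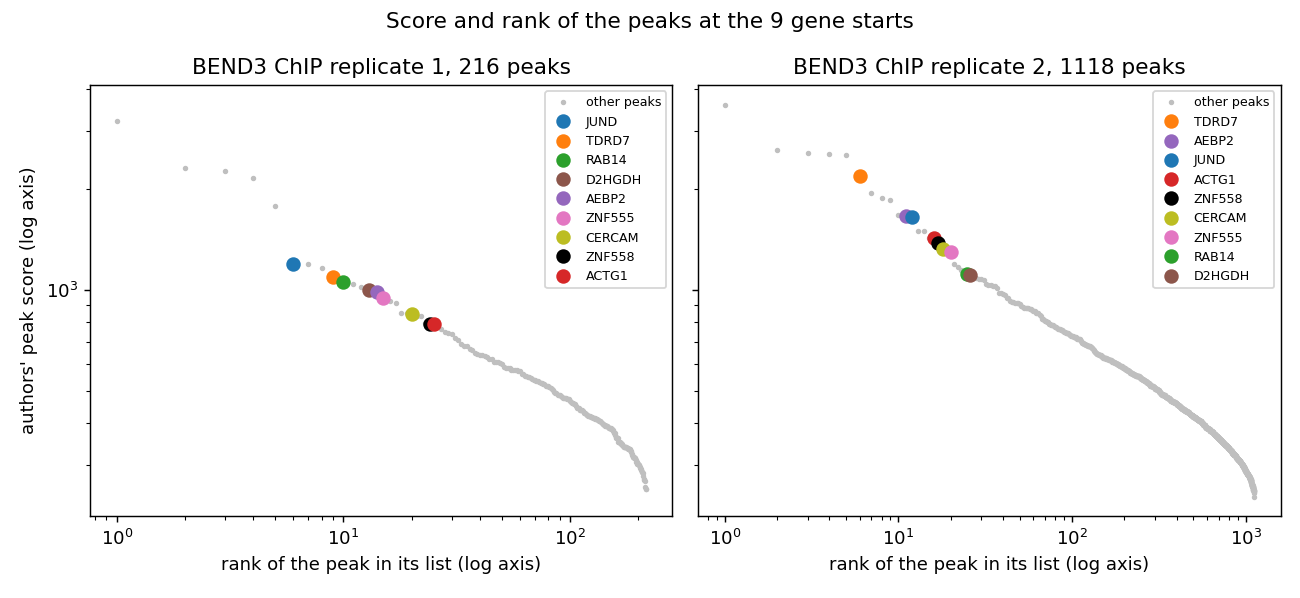
Authors' score (y axis, log) against rank (x axis, log) for every peak of replicate 1 (left) and replicate 2 (right), with the 9 loci in colour. JUND leads the members in replicate 1 and TDRD7 in replicate 2, and all 9 stand at rank 26 or better.

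Ordered by the sum of their ranks in both lists, the members took places 6 to 18 among the shared regions. TDRD7 came first among them (sum 15), followed by JUND (18) and AEBP2 (25), and ACTG1 and ZNF558 came last with equal sums of 41. From place 6 to place 18 the shared regions numbered 14, of which 5 were no members. The last of these 5, at place 17, lay at chr1:154974000-154974383 (sum 40). Just outside the lowest member came chr10:130262651-130262982 (sum 43) and chr19:2945135-2945478 (sum 45), which are no members either. So the rank sums show no gap between members and the regions next to them.

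Both lists placed most of the member peaks at nearly the same bases. In replicate 1, 8 members had widths of 279 to 344 bp, and D2HGDH had 920 bp. The member median was 310 bp, against 301 bp over all shared peaks of that list and 302 bp over the whole list. In replicate 2 the widths were 349 bp at JUND, 365 at ZNF558, 373 at TDRD7, 392 at AEBP2, 420 at CERCAM and 438 at ACTG1. At ZNF555, D2HGDH and RAB14 they were 858, 898 and 1144 bp. The member median was 420 bp there, against 493 bp over shared peaks and 346.5 bp over the whole list. Every member peak of replicate 2 was wider than this whole-list median. The middles of the paired peaks were 20 bp apart in the median over members and 43.75 bp over all shared pairs. At RAB14 and ZNF555 they were 390 and 237.5 bp apart.

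Replicate 1 peaks lay wholly inside the replicate 2 peak at 8 of 9 members, against 68.4% of shared pairs. The exception, D2HGDH, was the one member whose peak was narrower in replicate 2, where it ended 34 bp earlier. At least 50% of both peaks overlapped at 7 members (70.9% of shared pairs), and at least 80% at TDRD7, ZNF558 and D2HGDH (32.1% of shared pairs). RAB14 and ZNF555 missed the 50% mark because only 26.9% and 32.5% of their replicate 2 peaks were covered. Their replicate 2 peaks were 3.71 and 3.08 times as wide as those of replicate 1. A ratio of at least 2 was reached by these 2 members and by 26.5% of shared pairs. The median ratio was 1.26 over members and 1.35 over all shared pairs.

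At RAB14 and ZNF555 most of the bases added in replicate 2 fell on 1 side. Read in the direction of transcription, with strands from RefSeq, RAB14 gained 808 bp downstream and 28 bp upstream. ZNF555 gained 527 bp downstream and 52 bp upstream. The downstream gain was also the greater at ACTG1 (76 against 18 bp), JUND (55 against 15), CERCAM (54 against 32), ZNF558 (36 against 18) and AEBP2, where both sides gained nearly the same (57 against 53). TDRD7 gained more upstream (40 against 23 bp), and D2HGDH gained 12 bp upstream and lost bases downstream. The downstream gain was thus greater at 7 of 9 loci, 4 of them on the minus strand. By coordinate, without regard to strand, the low side gained more at 6 of 9 loci, which include those 4. Apart from RAB14 and ZNF555 no gain exceeded 76 bp. The strand of the other shared regions was not known, so no background can be given for the downstream count. The split by coordinate over all shared pairs is not given here.

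**Figure D4:**
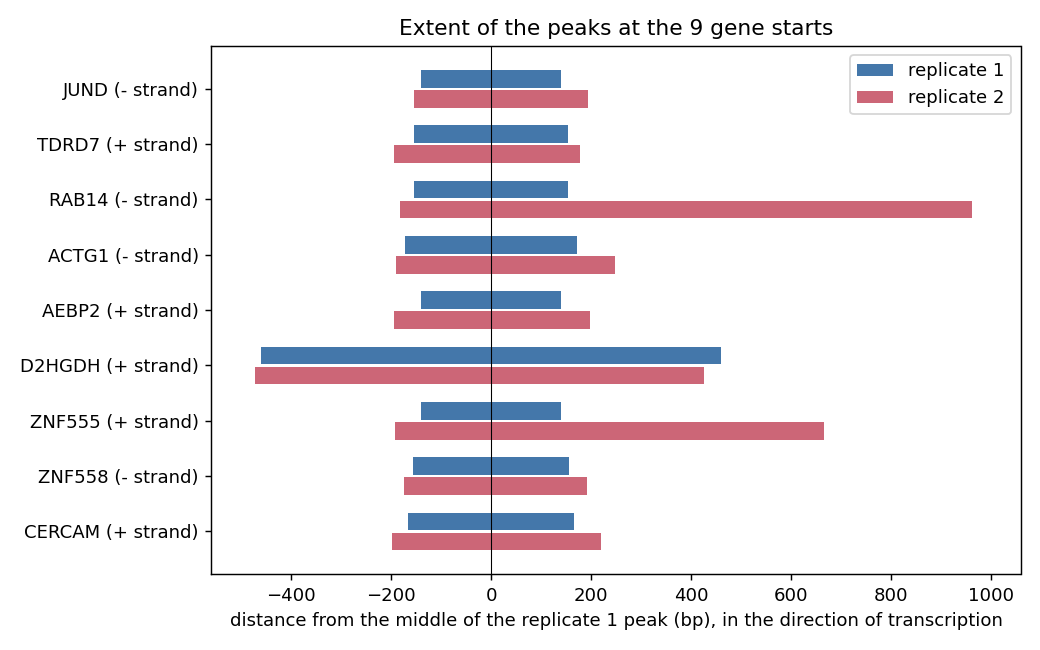
Extent of the replicate 1 and replicate 2 peaks at each of the 9 loci (y axis), as distance in bp from the middle of the replicate 1 peak, turned so that transcription runs to the right. The replicate 2 peaks of RAB14 and ZNF555 reach far to the right, and D2HGDH is wide in both lists.

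The 3 members with the widest replicate 2 peaks also stood lower in that list. Among the 196 shared regions RAB14 was at place 10 in replicate 1 and 21 in replicate 2, D2HGDH at 13 and 22, and ZNF555 at 15 and 17. Of the 6 members with narrower replicate 2 peaks only JUND also lost places (from 6 to 11). ACTG1 gained most, from 25 to 13, followed by ZNF558, from 24 to 14. Over all 196 shared regions, Spearman's rho between the replicate 2 width and the places lost was -0.0023, and between the width ratio and the places lost it was 0.079. Both describe regions of 1 pair of libraries that share their IgG control. The 49 shared regions over 800 bp wide in replicate 2 lost 3 places in the median, and the other 147 had a median of -2 places lost, that is, a small gain. Places were lost by 29 of these 49 and by 68 of the 147. The 800 bp mark lies in the gap between the members' own widths. By width ratio, the 52 regions at least 2 times as wide in replicate 2 lost 2.5 places in the median. D2HGDH is not among these, since it was wide in both lists.

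**Figure D5:**
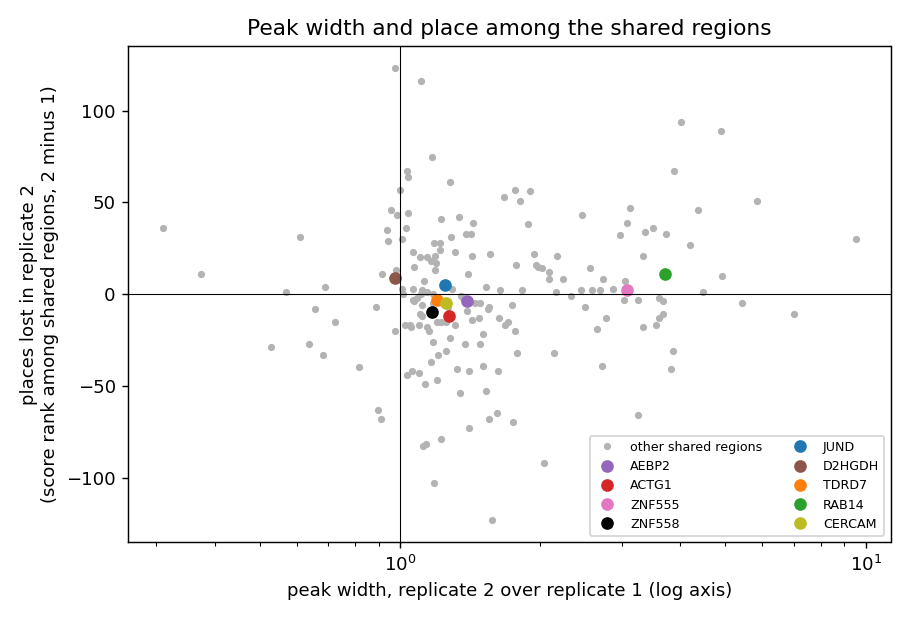
Width ratio of the paired peaks (x axis, replicate 2 over replicate 1, log) against places lost in replicate 2 (y axis, score rank among the 196 shared regions, replicate 2 minus 1). The 9 loci lie within 12 places of 0, inside a cloud that shows little trend.

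CERCAM was the one member in the hg19 gene sample used here (44 genes), so its label alone could be checked against an annotation of the peaks' build. CERCAM lies on the plus strand and has 4 start sites in that sample. The first of them, at 131174045, lay 8387 bp from the replicate 1 peak and 8355 bp from the replicate 2 peak. The start at 131182466 lay under both peaks. Here the replicate 1 peak reached from 34 bp before the start to 299 bp after it, and the replicate 2 peak from 66 bp before to 353 bp after. Their bases after the start fell in the first exon of that transcript. The start at 131182759 was also under both peaks, near their downstream edge, with 6 and 60 bp of peak beyond it. The last start, at 131186321, was 3556 and 3502 bp away. Both peaks thus marked an internal pair of starts and not the outermost one. The RefSeq windows of CERCAM are in another build and were not matched to these 4 starts. Their sequence may therefore not be that of a start under the peaks. For the other 8 genes the label is the name attached to the locus and was not checked against hg19.

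ZNF558 and RAB14 share their start region with another gene, and how common this is among all genes is not given here. In RefSeq (GRCh38.p14) the start of MBD3L1, a gene related to the methyl-CpG binding protein MBD3, lay 73 bp from the ZNF558 start, on the other strand and facing away. The start of GSN, which encodes the actin-severing protein gelsolin, lay 386 bp from the RAB14 start, inside RAB14 and on the other strand. At these loci a peak cannot be given to 1 of the genes by position. At the other 7 members no other gene with a RefSeq window started as near. IQCN was 7170 bp from JUND, and the rest were at least 15405 bp away. The neighbouring protein-coding genes include ZNF554 and ZNF556 beside ZNF555, ING5 and GAL3ST2 beside D2HGDH, BAHCC1 and FSCN2 beside ACTG1, and URM1 and ODF2 beside CERCAM.

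The member peaks had no close neighbours, as was usual in these lists. In replicate 1 the nearest other peak was 103.8 kb away at ZNF555 and 349.1 kb away at ACTG1, and farther at the other members, up to 7955 kb at TDRD7. In the longer replicate 2 list the nearest peak was 58.5 kb away at ZNF555, 78.1 kb at JUND and 109.6 kb at ACTG1. The greatest distance there was 3056 kb, at RAB14. Another peak within 50 kb was found at 0 of the 9 loci in either list. Of all peaks, 96.3% in replicate 1 and 86.3% in replicate 2 had no other peak of their list within 50 kb.

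Genes related to the members were examined for promoter sequence only, since their hg19 positions were not used here. Of 53 relatives, 46 had a RefSeq window, and 2 of these held CCCACGCG. The share was 2.04% of all genes and 3.7% of genes with a CpG-rich window. The 2 relatives were TDRD5, a Tudor-domain protein of the germ line like TDRD7, and ZNF560, a zinc finger gene. The shorter core CACGCG was found in 16 of the 46 relatives, against 13.5% of all genes and 24.3% of genes with a CpG-rich window. A CpG-rich window was present in 41 of the 46, against 50.2% of all genes. By family, the core was present in 4 of 8 Tudor-domain genes, 4 of 10 genes of Polycomb repressive complex 2, 3 of 5 AP-1 genes and 3 of 10 zinc finger genes. It was present in 1 of 5 RAB genes, 1 of 2 collagen galactosyltransferase genes, 0 of 4 actins and 0 of 2 genes of 2-hydroxyglutarate metabolism. The many NF-Y boxes of ZNF555 were not particular to it. Of the zinc finger relatives, ZNF77 had 6 matches of CCAAT, ZNF556 had 5, ZNF57 had 4 and ZNF554 had 2. The other zinc finger relatives with a window had at most 1.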

How the data were processed

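ChIP-seq libraries of NTera2 cells were made with an antibody against BEND3 (2 libraries) or with rabbit IgG (1 library). Tools listed in the submitters' processing notes are MACS2, Novoalign and Picard 2.9.4, and the build is hg19; their roles and settings are not given in the sources used here. The 2 peak lists, deposited by the authors without a header, hold a score per peak. In 100% of peaks it is 10 times column 9 without decimals. Column 9 was above column 8 in 100% of peaks, so neither was read as a p- or q-value. Peak starts and ends are printed 1-based. Peaks of the IgG library were not analysed here.

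The members, motifs and lists of relatives were chosen with earlier results of these data known, so no test was made: members are set beside all peaks, shared pairs or genes. Loci were the peaks overlapping 9 intervals given in hg19. All members and any relative whose window holds CCCACGCG are named. Some zinc finger relatives are also named for their CCAAT matches. Motifs were searched on both strands, with overlapping matches counted. The motif search was tested on simulated sequences of A and T with CCCACGCG planted, where no other match could arise. It was not tested in GC-rich sequence. The overlap search was tested on peaks of these data that were shifted slightly or moved off their chromosome. Start sites of CERCAM came from the sample database of GenomicFeatures 1.54.1 and chromosome lengths from circlize 0.4.16. Python 3.11.15, numpy 2.4.6, pandas 2.3.3 and matplotlib 3.10.9 were used.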

Additional observations from a re-analysis of the deposited data

How the results depend on the processing

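Of 21 alternative values, 16 stayed close to the reported ones (within 1.5 times for counts, within 1 SD otherwise) and 5 moved. For percentiles the SD was that between the 2 lists (3.507). These lists differ in length, so it does not measure the spread between repeats alone. For the width ratio it was the SD over members (0.979), and for CpG observed over expected that over the member windows (0.3245). Such broad SDs let most values count as close, so the 16 say little about stability. Among the 16 are 2 that leave out a ChIP, each with 9 of 9 loci, and 1 that keeps peaks at or above the median score. These follow from the choice of members and say nothing about stability. An overlap of at least 80% of both peaks left 3 of the 9 loci, by construction of the stricter rule. Ranking replicate 2 among shared peaks, which leaves out peaks found in that list alone, put the median member at percentile 92.9 in place of 98.5. With CGCG in place of CCCACGCG 9 genes had a match. On the gene's strand alone 1 gene did (TDRD7), and in the 250 bases before the start also 1 (TDRD7), because the ZNF558 match lies on the other strand after the start. The restriction to CpG-rich windows and the mean within genes were added after seeing the data. Unknown depth limits what the absence of a second peak near a member can show.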
